A study of Mus musculus with 6 samples.

Results

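The genes described here store triglyceride in lipid droplets, the organelles in which hepatocytes keep surplus fatty acids as a neutral lipid core under a coat of proteins. A list of 10 genes was read from the arrays of this series: the droplet coat genes Plin2, Plin4 and Plin5, the droplet fusion genes Cidea, Cideb and Cidec, the triglyceride lipase gene Pnpla2 with its inhibitor G0s2, the triglyceride synthase gene Dgat2 and the fatty acid uptake gene Cd36. A gene was read only from probe sets that the platform annotation gives 1 symbol, and 9 of the 10 genes had one, out of 22180 genes on the arrays. The probe set listed for Cideb also carries the symbol Nop9, so no value is given for Cideb.

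Liver tissue of 6 mice was measured on 1 array each, 3 wild-type controls and 3 ErbB4-/- mice, all given as strain C57BL/6J. ErbB4 is a receptor tyrosine kinase that binds neuregulins. The ErbB4-/- mice are full mutants kept alive past the embryonic stage by a transgene that overexpresses ErbB4 in the heart (ErbB4-/-HER4heart), backcrossed to C57BL/6J for more than 15 generations, and the sources used here do not say whether controls carry that transgene. All 6 mice, controls included, were injected once with DEN on postnatal day 14, an abbreviation that in liver research stands for the carcinogen diethylnitrosamine. The labels disagree on the time to dissection: the protocol has 32 weeks for every mouse, while the treatment characteristic rises from 32 weeks in the first control mouse through 33, 34, 35 and 36 weeks to 37 weeks in the last ErbB4-/- mouse, so that each mutant would be the older. The sources used here give no sex, feeding state or time of day at dissection. The question put by the design is which transcripts differ between the genotypes, and an effect of the missing receptor cannot be told apart from one of other features of the mutant line.

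Values are log2 expression of 1 probe set per gene, so they can be compared between arrays and not between genes, and differences are ErbB4-/- minus control. Some arrays stood apart. Control replicate 1 read 2.52 for Hsd3b5, a male-biased steroid enzyme gene of mouse liver, against 8.70 to 9.88 on the other 5 arrays, and 12.59 for Cyp2b9, a female-biased cytochrome gene, against 7.84 to 8.46. ErbB4-/- replicate 3 was the lowest array for all 10 Kupffer cell and macrophage markers and for all 10 endothelial markers listed. Over all genes it was the lowest array for 20.0%. The marker lists were chosen with earlier results of these data known. The hepatocyte list had a mean level of 13.32 to 13.38 on control arrays and 13.23 to 13.32 on ErbB4-/- arrays. Albumin (Alb) lay between 14.31 and 14.37. All 9 hepatocyte markers measured had lower means in ErbB4-/- liver, as had 10057 of 22180 genes. ErbB4-/- replicate 3 was the lowest array for 7 of the 9. All 10 stellate cell markers had lower means too, and that array was the lowest for 6. Groups were lower without overlap for 1 hepatocyte marker, Hnf4a, for 4 stellate cell markers and for 3.81% of all genes. In a piece of tissue, fewer cells of a type and less RNA per cell cannot be told apart.

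In liver, PNPLA2 starts the breakdown of stored triglyceride, G0S2 binds and blocks it, and perilipins regulate the access of lipases to the droplet. CIDEA and CIDEC move lipid between droplets so that large ones grow, and their genes are low in lean liver and induced in fatty liver. DGAT2 adds the last fatty acid to make a triglyceride, and CD36 brings fatty acids in through the plasma membrane. Several of these genes are targets of PPAR nuclear receptors.

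No difference was called for any of the 9 measured genes between ErbB4-/- and control liver, as for nearly all genes on the arrays. The 95% intervals were wide, up to 0.693 to 3.85-fold for G0s2, so differences of some size may have been missed. By limma, 0 of 9 passed at an adjusted p under 0.05, where 0.00451% of all genes did, and 0 of 9 had an unadjusted p under 0.05, where 5.72% of all genes did. Both groups overlapped or touched for all 9 genes on the probe sets that stand for them, while 8.33% of all genes had groups without overlap. The differences ran from -0.03 for Cd36 to 0.71 for G0s2, with a median of 0.11 against 0.01 over all genes. The mean was higher in ErbB4-/- liver for 8 of the 9 genes and for 54.7% of all genes.

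**Figure D1:**
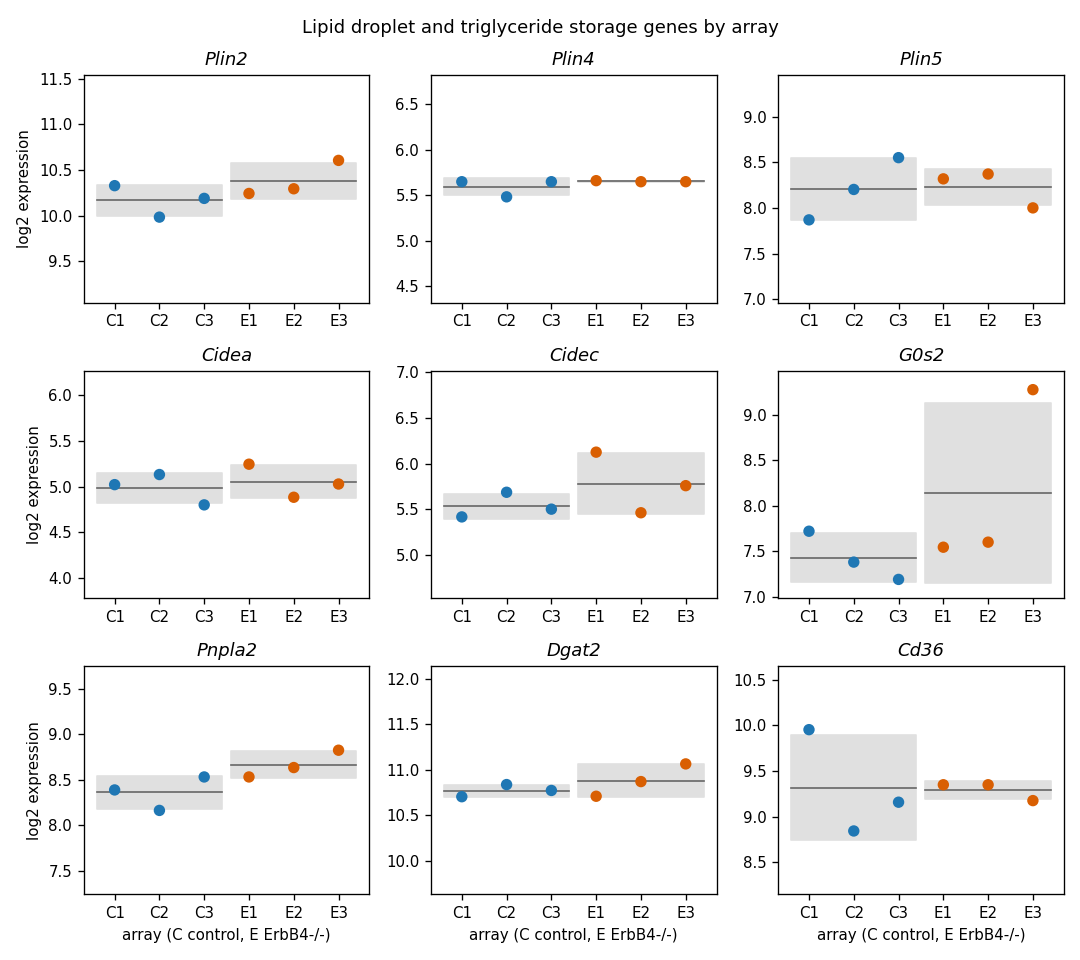
Log2 expression (y axis, every panel spans the same width) of the 9 measured storage genes on 3 control arrays (C1 to C3, blue) and 3 ErbB4-/- arrays (E1 to E3, orange). Lines are group means and grey bands 1 SD either side (n = 3); G0s2 at 9.27 in E3 and Cd36 at 9.95 in C1 lie farthest from the rest of their groups.

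The largest differences were those of G0s2 and Pnpla2. Without ErbB4-/- replicate 3 that of Cidec was the largest, at 0.26, with Pnpla2 at 0.22. G0s2, whose small protein inhibits PNPLA2, measured 7.72, 7.38 and 7.19 on the arrays of control mice 1, 2 and 3, against 7.55, 7.60 and 9.27 on those of ErbB4-/- mice 1, 2 and 3, and further values follow this order. ErbB4-/- replicate 3 was far above every other array, and the other ErbB4-/- arrays lay inside the control range. The means were 7.43 ± 0.27 and 8.14 ± 0.98 (SD, n = 3 each), a difference of 0.71 with a 95% interval of -0.53 to 1.95 that did not pass (limma, adjusted p = 0.760). Without ErbB4-/- replicate 3 the difference was 0.14, and without ErbB4-/- replicate 1 it was 1.01. The other probe set of G0s2 measured 5.47, 5.47 and 5.07 in control and 5.70, 5.49 and 6.42 in ErbB4-/- liver. Here the groups did not overlap, with the lowest ErbB4-/- value just above the control values of 5.47. The share of all probe sets without overlap was not counted. The difference was 0.53 and did not pass (limma over every probe set, adjusted p = 0.814). ErbB4-/- replicate 3 was the highest array on both probe sets.

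Pnpla2, the lipase gene itself (ATGL), came nearest to a separation of the groups. It measured 8.39, 8.17 and 8.53 in control and 8.53, 8.64 and 8.83 in ErbB4-/- liver. Control replicate 3 and ErbB4-/- replicate 1 held the same value, so that the groups touched without crossing. The means were 8.36 ± 0.18 and 8.66 ± 0.15 (SD, n = 3 each), a 1.23-fold difference with a 95% interval of 0.997 to 1.52-fold. Its unadjusted p was 0.0522 and it did not pass (limma, adjusted p = 0.760). Leaving out 1 array gave differences between 0.20 and 0.39. With the weeks of the treatment characteristic as a covariate the difference was -0.0249. Among other genes of the lipase cascade, Abhd5, the coactivator of PNPLA2, measured 7.35 to 7.48 in control against 7.39 to 7.67 in ErbB4-/- liver, and Lipe, hormone-sensitive lipase, 5.84 to 5.87 and 5.85 to 6.00. Mgll, which releases the last fatty acid from glycerol, was again highest in ErbB4-/- replicate 3, at 8.76 against 7.61 to 7.94 on the other 5 arrays.

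Among the coat genes, Plin2, the perilipin that covers droplets in most cell types, measured 10.33, 9.98 and 10.19 in control and 10.24, 10.29 and 10.61 in ErbB4-/- liver. Control replicate 1 lay above 2 of the ErbB4-/- arrays, and the highest value was again that of ErbB4-/- replicate 3. The means were 10.17 ± 0.17 and 10.38 ± 0.20, a 1.16-fold difference with a 95% interval of 0.920 to 1.46-fold (limma, adjusted p = 0.760). On the log2 scale the difference was 0.21, or 0.10 without ErbB4-/- replicate 3, 0.12 without control replicate 2 and 0.0467 with the weeks as a covariate.

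Plin5, the perilipin of oxidative tissues that ties droplets to mitochondria, measured 7.87, 8.20 and 8.55 in control and 8.32, 8.37 and 8.001 in ErbB4-/- liver. All ErbB4-/- values fell inside the control range. The difference was 0.02 with a 95% interval of -0.47 to 0.51 (limma, adjusted p = 0.979), and it turned to -0.15 without control replicate 1. Plin5 was thus low in both control replicate 1 and ErbB4-/- replicate 3. These were the arrays in which G0s2 was highest on the probe set that stands for it. Its other probe set did not show this for control replicate 1.

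Plin4, a perilipin best known from adipose tissue and muscle, was flat. It measured 5.65, 5.48 and 5.65 in control and 5.66, 5.65 and 5.65 in ErbB4-/- liver, and 4 of these 6 values were identical in the deposited table. Values identical on 2 or more arrays, to within 1e-06, were common there, in 57.5% of all genes. The difference was 0.06 with a 95% interval of -0.10 to 0.22 (limma, adjusted p = 0.796), and 0.0038 without control replicate 2, the 1 array that read lower. Plin4 and Plin5 are neighbours in the RefSeq annotation.

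Cidea, a droplet fusion gene, measured 5.02, 5.13 and 4.80 in control and 5.25, 4.88 and 5.03 in ErbB4-/- liver, with both groups over much the same range. No background signal was used here, so it was not tested whether these values lay above background. The difference was 0.07 with a 95% interval of -0.25 to 0.39 (limma, adjusted p = 0.881). Cidec, its relative with the same role, measured 5.42, 5.69 and 5.50 in control and 6.13, 5.46 and 5.76 in ErbB4-/- liver. Its highest array was ErbB4-/- replicate 1, not replicate 3, and ErbB4-/- replicate 2 lay below control replicate 2. The means were 5.53 ± 0.14 and 5.78 ± 0.33, a difference of 0.25 with a 95% interval of -0.20 to 0.70 (limma, adjusted p = 0.760). Without ErbB4-/- replicate 1 it was 0.08, and without ErbB4-/- replicate 2 it was 0.41.

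Dgat2, the synthase gene, measured 10.70, 10.84 and 10.77 in control and 10.71, 10.87 and 11.06 in ErbB4-/- liver. It had one of the narrowest ranges of the list, 0.36 over the 6 arrays, with the top value in ErbB4-/- replicate 3. The difference was 0.11 with a 95% interval of -0.14 to 0.36, or 0.906 to 1.29-fold (limma, adjusted p = 0.777). It was 0.0183 without ErbB4-/- replicate 3 and 0.20 without ErbB4-/- replicate 1. Dgat1, the other triglyceride synthase gene, measured 6.87 to 7.11 in control and 7.03 on each ErbB4-/- array.

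Cd36, the fatty acid translocase gene, measured 9.95, 8.84 and 9.16 in control and 9.35, 9.35 and 9.17 in ErbB4-/- liver. Control replicate 1 was the highest array and control replicate 2 the lowest, so the ErbB4-/- arrays all lay inside the control range. The means were 9.32 ± 0.57 and 9.29 ± 0.10, a difference of -0.03 with a 95% interval of -0.74 to 0.69 (limma, adjusted p = 0.986). Without control replicate 1 the difference was 0.29 and the groups did not overlap, as was then the case for 17.0% of all genes, and without control replicate 2 it was -0.26. Control replicate 1 is the array with low male-biased values, with a mean of 7.23 over 6 male-biased genes against 10.83 to 11.25 elsewhere. Of 4 female-biased genes measured, it was the highest array for 3 and the lowest for 1, Sult2a1, at 2.56. Cd36 is also made by macrophages and endothelial cells. The mean of 10 macrophage markers was 8.56 to 8.84 in control and 7.25 to 8.18 in ErbB4-/- liver, with 10 of 10 lower and 9 of them without overlap, where 3.81% of all genes were lower without overlap. That of 10 endothelial markers was 8.48 to 9.02 and 7.14 to 8.52. Both marker lists were chosen with earlier results of these data known, and the part of these shifts in the Cd36 values was not tested.

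**Figure D2:**
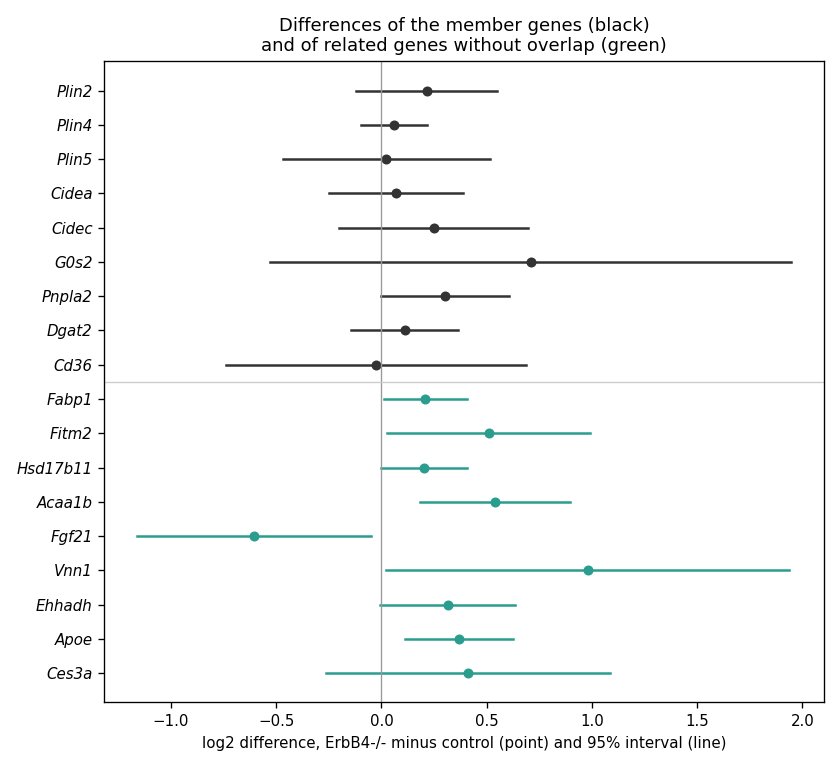
Log2 difference ErbB4-/- minus control (x axis, point) with its 95% interval from limma (line) for the 9 measured storage genes (black) and for 9 genes of related lists whose groups did not overlap (green). Every black line reaches or crosses 0, and G0s2 has the widest, from -0.53 to 1.95.

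The values were also set side by side array by array. ErbB4-/- replicate 3 was the highest of the 6 arrays for G0s2, Plin2, Pnpla2 and Dgat2, that is 4 of 9 genes, where it was highest for 23.6% of all genes. Control replicate 2 was the lowest for Plin2, Plin4, Pnpla2 and Cd36, again 4 of 9, where it was lowest for 15.0% of all genes. These array counts were made after the values had been seen and are a description. The 9 genes deviated on average by 0.24 from their own means in ErbB4-/- replicate 3 and by -0.17 in control replicate 2, with the other 4 arrays between -0.10 and 0.06. Most of the first value came from G0s2, which lay 1.49 above its own mean there: the median over the 9 genes was 0.10, and the mean of the other 8 genes was 0.08, against 0.09 in ErbB4-/- replicate 1 and -0.14 in control replicate 2.

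The sequences before the start sites of G0s2, Plin2 and Pnpla2 are shown because these genes shared their highest array. Dgat2 shared it too, but no RefSeq window was at hand for that gene. Each run is the 250 bases upstream of the start given by RefSeq on assembly GRCm38.p6, 5′ to 3′ on the gene's strand, and capitals mark a match to the half-site AGGTCA, which PPAR and other nuclear receptors bind, on either strand.
G0s2, chr1:193273189-193273438, minus strand: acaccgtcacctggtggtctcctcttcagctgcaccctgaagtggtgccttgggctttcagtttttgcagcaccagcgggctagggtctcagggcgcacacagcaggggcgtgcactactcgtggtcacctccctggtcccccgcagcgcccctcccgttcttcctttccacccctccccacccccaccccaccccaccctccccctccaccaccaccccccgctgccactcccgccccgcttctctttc
Plin2, chr4:86670060-86670309, minus strand: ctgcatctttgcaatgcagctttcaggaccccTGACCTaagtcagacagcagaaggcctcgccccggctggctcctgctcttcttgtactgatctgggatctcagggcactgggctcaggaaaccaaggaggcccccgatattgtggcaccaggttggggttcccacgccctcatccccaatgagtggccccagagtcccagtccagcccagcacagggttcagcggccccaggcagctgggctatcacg
Pnpla2, chr7:141454938-141455187, plus strand: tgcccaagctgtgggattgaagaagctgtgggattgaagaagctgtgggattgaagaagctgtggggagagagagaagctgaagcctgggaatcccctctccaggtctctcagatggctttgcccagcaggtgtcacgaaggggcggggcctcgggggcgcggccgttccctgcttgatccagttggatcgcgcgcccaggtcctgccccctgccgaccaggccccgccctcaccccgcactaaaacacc

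Windows of 300 bases that also take in the first 50 bases of the transcript were searched for 3 motifs on both strands. RefSeq windows were at hand for 8 of the 10 genes, in 10 windows. The half-site AGGTCA was found in 4 of these 10 windows, those of Cd36, Plin2 and both overlapping windows of Plin5, and in 16.3% of all 32851 windows. The E-box CACGTG, bound by clock and carbohydrate response factors, was found for Plin2 and in 7.2% of all windows. The D-box TTANGTAA, bound by the PAR-bZIP factors DBP, TEF and HLF, was found in none of the 10 and in 2.3% of all windows. A match is a run of letters and not a shown binding site.

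G0s2 had the widest range of the list, 2.08 over the 6 arrays, and the genes with the closest profiles were named. Closeness was the root-mean-square difference between profiles centred on their own means, over 6 arrays, with a median of 0.69 for all other genes. The closest was Tef at 0.14, a PAR-bZIP transcription factor of the clock output, with 6.13, 5.56 and 5.32 in control and 5.56, 5.61 and 7.37 in ErbB4-/- liver. Zfp640 followed at 0.18, a zinc finger gene, then Bhlhe41 (DEC2), a repressor in the clock, at 0.22, Gbp11, a guanylate-binding protein gene, at 0.24, and Per3, a period gene of the clock, at 0.25. Close profiles are to be found for many genes when 22180 are searched over 6 arrays, so this is a description of these arrays.

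Clock genes were then read out, as a list drawn up after these values had been seen. Dbp, a clock output factor, measured 9.01, 7.06 and 6.79 in control and 7.52, 7.61 and 10.18 in ErbB4-/- liver. Arntl (BMAL1), an activator of the core clock, measured 7.13, 8.71 and 9.03 in control and 8.63, 8.54 and 5.91 in ErbB4-/- liver. ErbB4-/- replicate 3 was thus the highest array for Dbp and the lowest for Arntl, and control replicate 1 came next in both. G0s2 had its second highest value in control replicate 1 too on the probe set that stands for it. On its other probe set control replicate 1, at 5.47, tied with control replicate 2 and lay below every ErbB4-/- array. Of the 16 clock genes measured, ErbB4-/- replicate 3 was the highest array for 8 and the lowest for 5. Over all genes it was highest for 23.6% and lowest for 20.0%. Between the groups, 0 of the 16 clock genes passed (limma, adjusted p from 0.760 to 0.893, with 0 at an unadjusted p under 0.05). Their part in the G0s2 values was not tested.

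**Figure D3:**
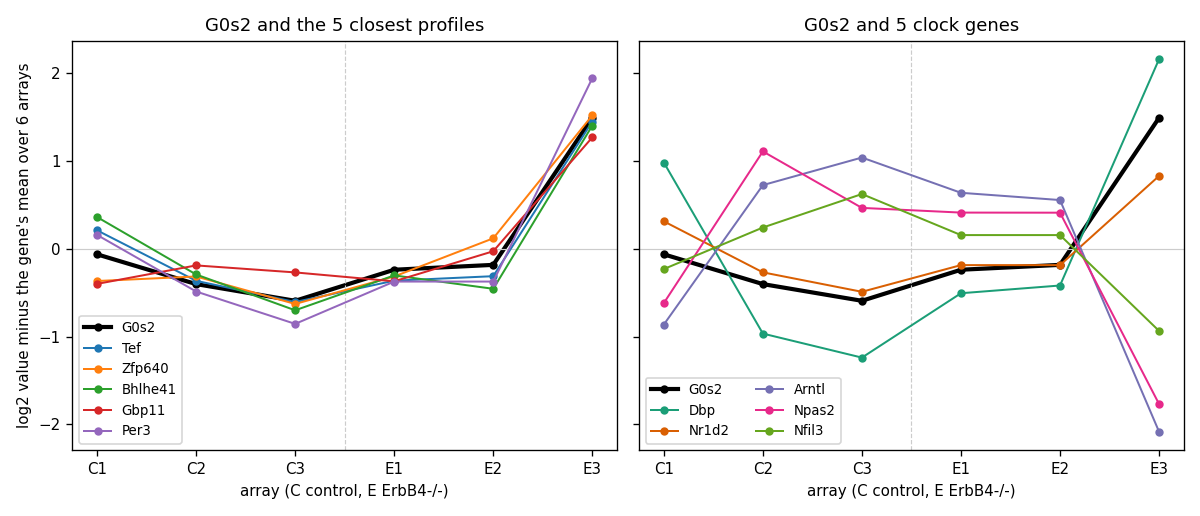
Log2 value minus the gene's own mean over the 6 arrays (y axis) by array (C1 to C3 control, E1 to E3 ErbB4-/-), for G0s2 (black) with its 5 closest profiles (left) and with 5 clock genes (right). G0s2, Dbp and Nr1d2 peak in E3, where Arntl, Npas2 and Nfil3 are lowest.

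Other genes of triglyceride storage and handling, from a list of 40 chosen with earlier results known, gave no call either. Of 38 measured, 23 had the higher mean in ErbB4-/- liver and 15 the lower, and 0 passed (limma, adjusted p from 0.760 to 0.992). The median difference was 0.02. By limma, Lpin1, Fabp1 and Fitm2 had an unadjusted p under 0.05, as had 5.72% of all genes. The groups did not overlap for 3 of the 38, not the same 3, all higher in ErbB4-/- liver, as for 4.52% of all genes. These were Fabp1, the liver fatty acid binding protein gene, at 12.50 ± 0.12 against 12.71 ± 0.07, Fitm2, which helps droplets bud from the endoplasmic reticulum, at 7.72 ± 0.23 against 8.23 ± 0.31, and Hsd17b11, a droplet-associated dehydrogenase gene, at 9.94 ± 0.07 against 10.14 ± 0.13 (SD, n = 3 each). The difference of Fitm2 was 0.51, or 0.33 without ErbB4-/- replicate 3. The ends of the list, named after their values were seen, were Fitm1, a relative of Fitm2, with a difference of 0.75, and Lpin1, a phosphatidate phosphatase gene, with -0.82. Lpin1 measured 9.95, 9.35 and 9.92 in control and 8.54, 8.84 and 9.38 in ErbB4-/- liver, an overlap by ErbB4-/- replicate 3 alone. Its 95% interval was -1.49 to -0.15 (limma, unadjusted p = 0.0247, adjusted p = 0.760). The mean of the 8 adipocyte markers measured was 5.28 to 5.43 in control and 5.15 to 5.40 in ErbB4-/- liver. Over the 6 arrays Adipoq, the adiponectin gene, read 3.94 to 4.16 and Lep, the leptin gene, 3.73 to 3.99. Fabp4, which macrophages and endothelial cells also make, read 6.17 to 7.60 and the lipoprotein lipase gene Lpl 7.60 to 8.52. These levels cannot be compared between genes, and the cells that made the transcripts were not tested.

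Genes of fatty acid oxidation and PPAR targets were highest in the same array as G0s2, Plin2, Pnpla2 and Dgat2 for most of their members. Of 25 measured, 0 passed (limma, adjusted p from 0.760 to 0.898, with 3 at an unadjusted p under 0.05, as had 5.72% of all genes). The median difference was 0.14, or 0.03 without ErbB4-/- replicate 3. That array was the highest array for 16 of the 25 and control replicate 2 the lowest for 13. Over all genes these shares were 23.6% and 15.0%. The groups did not overlap for 4 of the 25 genes, as for 8.33% of all genes, and none of the 4 passed. Acaa1b, a peroxisomal thiolase gene, had means of 9.85 ± 0.24 and 10.39 ± 0.15 in control and mutant arrays, Vnn1, a pantetheinase gene and PPARA target, 7.74 ± 0.68 and 8.72 ± 0.39, and Ehhadh, the peroxisomal bifunctional enzyme gene, 9.81 ± 0.03 and 10.12 ± 0.25. Fgf21, a liver hormone gene induced by fasting, had the lower mean in ErbB4-/- liver, at 5.95 ± 0.18 and 5.34 ± 0.41 (SD, n = 3 each). The difference of Ehhadh was 0.17 without ErbB4-/- replicate 3, and that of Vnn1 0.60 without control replicate 2. Cyp4a14, a fatty acid hydroxylase gene and PPARA target, spread widely within the controls, at 11.91, 8.06 and 10.17 against 9.79, 10.63 and 11.07. Its order within the controls was that of Cd36, with replicate 1 highest and replicate 2 lowest. Cpt1a, which admits fatty acids to mitochondria, measured 11.66 in ErbB4-/- replicate 3 against 10.29 to 10.97 elsewhere.

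The genes of fatty acid synthesis had another pattern. Of 17 measured, 0 passed (limma, adjusted p from 0.760 to 0.996, with 0 at an unadjusted p under 0.05), none had groups without overlap, and the median difference was -0.10. Control replicate 2, low for Plin2, Pnpla2 and Cd36, was the highest array for 12 of these 17 genes, where it was highest for 12.4% of all genes. Fasn, the fatty acid synthase gene, read 10.98 there against 9.33 to 9.88 on the other 5 arrays, and Thrsp, a lipogenic regulator gene, 10.51 against 8.66 to 9.19. Without control replicate 2 the median difference of the list was 0.12. For lipoprotein export, 0 of 15 measured genes passed, and the median difference was -0.02. By limma, the adjusted p ran from 0.760 to 0.982, and 1 gene had an unadjusted p under 0.05, as had 5.72% of all genes. Apoe, the apolipoprotein E gene, had means of 10.41 ± 0.19 and 10.78 ± 0.04, and Ces3a, a carboxylesterase gene, 12.28 ± 0.55 and 12.69 ± 0.08, both without overlap and neither passing. These were 2 of 15 genes, where 8.33% of all genes had groups without overlap. The Ces3a difference of 0.41 was 0.0953 without control replicate 1, which read 11.65 against 12.58 to 12.77 on the other 5 arrays. The microsomal transfer protein gene Mttp, which loads triglyceride onto apolipoprotein B, measured 10.32 to 10.34 in control and 10.21 to 10.44 in ErbB4-/- liver.

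**Figure D4:**
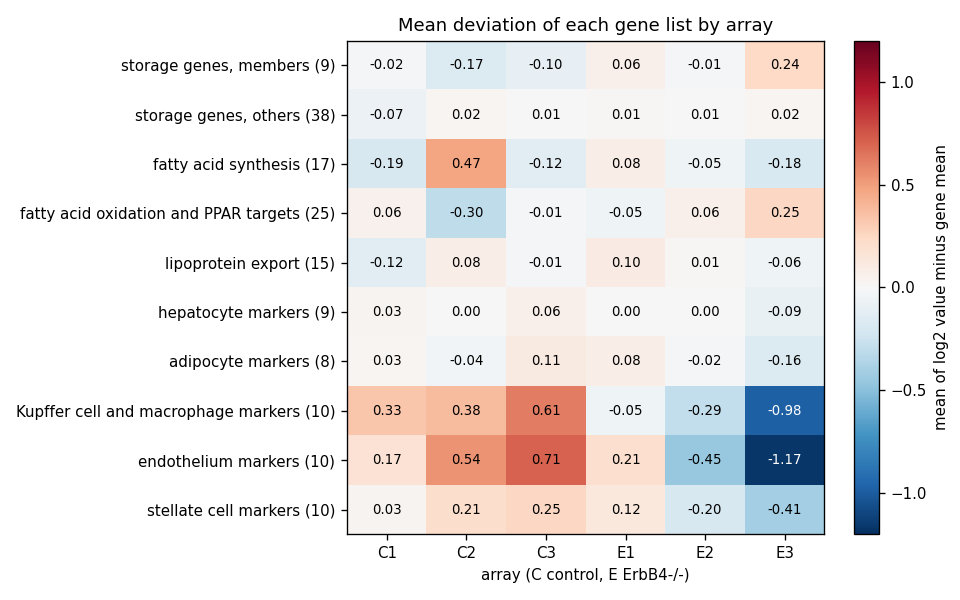
Mean over the genes of a list of the log2 value minus each gene's mean over 6 arrays, by list (rows, number of genes measured in brackets) and array (columns, C control, E ErbB4-/-), as colour and number. The oxidation genes are lowest in C2 and highest in E3, and so are the 9 member storage genes, whose mean without G0s2 is 0.08 in E3 and 0.09 in E1. The other storage genes are lowest in C1 (-0.07). The synthesis genes are highest in C2 (0.47), and macrophage and endothelial markers are lowest in E3 (-0.98 and -1.17).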

How the data were processed

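Each mouse gave 1 array. Per the labels' protocols, the RNA was amplified and biotin-labelled with whole-transcript kits of Affymetrix. The authors deposited log2 values, 1 per probe set and array; the log base was read from their range, and background correction, normalization and summarisation are not given in the sources used here. Of 41345 probe sets, 23521 carried 1 gene symbol, 1814 several and 16010 none listed. The probe set with the highest mean stood for a gene, which left 22180 genes; RefSeq (GRCm38.p6) updated 0 symbols.

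All genes were fitted together in limma 3.58.1 (lmFit, then eBayes; R 4.3.3), genotype as the only term, two-sided, Benjamini-Hochberg adjusted over 22180 genes with a threshold of 0.05. Intervals are limma's 95% intervals. The fit was tested on simulated data. No depth applies to arrays; their number limits the precision, with a median standard error of 0.10. The design text calls the mice biological replicates.

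The members and lists were chosen with earlier results of these data known. Named genes are the 10 listed, of each related list up to 4 without overlap by smallest p, and the 5 profiles closest to the member with the widest range; every other gene given with values, marker genes such as Hsd3b5, Cyp2b9, Alb, Adipoq, Lep, Fabp4 and Lpl included, was chosen after its values were seen, as were Lipe, Abhd5, Mgll, Dgat1, Cyp4a14, Cpt1a, Fasn, Thrsp and Mttp. Replicate numbers are shared by the groups, and the deviations of same-numbered arrays correlated at -0.10, 0.03 and -0.05. Such correlations cannot show whether same-numbered mice share a litter or a batch. The main fit took the arrays as unpaired. Figures were drawn with matplotlib 3.10.9.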

Additional observations from a re-analysis of the deposited data

How the results depend on the processing

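The counts and medians of the storage list and the 4 related lists, and the differences of the 9 storage genes and of 9 related genes without overlap, were computed again under 16 other settings; other values were not. Cidea fell below the median level and so had 15, and overlap was not counted for the replicate block and the weeks. No storage gene passed under any of them (limma, adjusted p from 0.643 to 1), nor did a gene of the 4 related lists, and 127 of the 143 alternative differences of the 9 storage genes kept their sign. An alternative pseudocount was not run because the values are already log2. The 1 gene that passed over all genes was lost, leaving 0, with every row of the table tested, with the replicate block, with the weeks as a covariate, without any 1 array (0 to 0) and with control replicate 1 and ErbB4-/- replicate 3 left out together. The replicate block changed no other call and left the median of the storage genes at 0.11.

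The number of storage genes without overlap was 2 after quantile normalization again (Plin4 and Pnpla2, with 14.8% of all genes), 0 to 3 without 1 array (14.9 to 18.5% of all genes), and 3 without both these arrays (27.5% of all genes). The median difference of the storage genes was 0.16 among genes at or above the median level, 0.0467 with the weeks, 0.18 without both arrays, and 0.0757 to 0.19 without 1 array. The other storage list had 0.0335 after quantile normalization again, -0.0339 with the weeks and 0.0200 to 0.0476 without 1 array. The synthesis list ran from -0.16 to 0.12 without 1 array. With the weeks, the oxidation list had -0.0921 and the export list 0.0743.

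Signs turned for Cd36 with array weights (0.0792) and without both arrays (0.35), for Plin5 (-0.0317) and Dgat2 (-0.0154) without both arrays, and, with the weeks, for Plin5 (-0.25), G0s2 (-0.19), Pnpla2 (-0.0249), Dgat2 (-0.21), Cd36 (0.70), Fitm2 (-0.17), Hsd17b11 (-0.0075), Fgf21 (0.24) and Ces3a (-0.25). Without 1 array, Cd36 ran from -0.26 to 0.29, Plin5 from -0.15 to 0.19 and Cidea from -0.0287 to 0.15. The cause of these moves was not tested. With weeks and genotype both in the fit, only the weeks within a group separate them.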
